A study of Homo sapiens with 6 samples.

Results

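The enzymes described here are the 3 that make serine from a glycolytic intermediate (PHGDH, PSAT1 and PSPH) and 6 that move a carbon from it through the folate pool, of which SHMT1 and MTHFD1 act in the cytosol and SHMT2, MTHFD2, MTHFD1L and ALDH1L2 in the mitochondrion. They were found in the deposited expression table by matching its Ensembl gene identifiers to these symbols, which gave 9 of 57773 listed genes. The members were picked as 1 pathway, but with the values of the same comparison known. Their differences between the groups are therefore given as a description, and the intervals and calls shown for them are not read as a test. The cells were H460, an established line from a human large cell carcinoma of the lung, and were transfected for 48 hours with 50 nM of either a non-targeting siRNA (siNT, 3 libraries) or siHKlincR1_2, a single siRNA against the long intergenic noncoding RNA HKlincR1 (siHKlincR1, 3 libraries), and polyadenylated RNA was sequenced. Both groups received the same transfection reagent, and untransfected cells were not analysed here. The RNA came from 1 cell line and 1 active siRNA, so the loss of HKlincR1 and other effects of that siRNA cannot be told apart.

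Serine made in the cell starts from 3-phosphoglycerate, which PHGDH oxidises, PSAT1 transaminates and PSPH dephosphorylates. Serine hydroxymethyltransferase then passes a carbon from serine to tetrahydrofolate and leaves glycine. In proliferating cells this carbon is known to be taken mostly in the mitochondrion, oxidised and released as formate, and picked up again by cytosolic folate for purine and thymidylate synthesis. The same steps are run by separate genes in each compartment, SHMT2 and SHMT1 for the first and MTHFD2, MTHFD1L and MTHFD1 for the next. Several of these genes are known targets of the stress-induced transcription factor ATF4, which binds a composite element with C/EBP proteins.

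The strand of the siRNA given in the labels has the same sense as the HKlincR1 transcript. It is shown because letters 12 to 18, in capitals, are the site with which the seed (positions 2 to 8) of its complementary guide strand pairs.

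siHKlincR1_2: gaaguauacucGUGUGCUu

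HKlincR1 was at 3.62, 3.47 and 3.83 RPKM (reads per kilobase of gene model, scaled to library depth) in the siNT libraries and at 0.563, 0.628 and 0.390 RPKM in the siHKlincR1 libraries, a mean reduction of 85.5% (p = 0.1 in an exact permutation test, two-sided, below which 3 against 3 libraries cannot go). Libraries held 24980280 to 30521000 reads, worked back from the RPKM values. Of the epithelial markers, KRT8, KRT18 and KRT19 summed to 148 to 170 RPKM together with EPCAM and CDH1, which were at or near 0 (at most 0.11 RPKM). Leukocyte markers summed to 0.0654 to 0.187 RPKM and endothelial markers to at most 0.0212 RPKM. Fibroblast markers summed to 15.0 to 17.7 RPKM with siNT and 18.9 to 22.8 RPKM with siHKlincR1, mostly from COL3A1 (log2 difference 0.37, limma adjusted p = 0.210, and 0.0444 with the replicate block). COL1A1 of the same list was lower in all 3 pairs, with no overlap between the groups (1.10 and 0.58 RPKM, log2 difference -0.85, limma adjusted p = 0.196, and 0.0807 with the block). PDGFRB was at 0.627 and 0.879 RPKM (siNT and siHKlincR1 means), LUM, whose groups overlapped, at 0.358 and 0.209 RPKM, and DCN at 0 in 5 of 6 libraries. Their part in the results below was not tested. Libraries with the same replicate number tended to deviate together from their group means, clearly so only for the third replicate. Differences are therefore also given within pairs of the same number, although the labels do not state a pairing.

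All 9 genes were expressed well above the filter of a mean of 0.5 RPKM, so that none was lost to it. In the siNT libraries PSAT1 had the highest level, with 151 ± 43.2 RPKM (SD, n = 3), followed by MTHFD2 with 94.0 ± 23.6 RPKM and SHMT2 with 80.2 ± 8.58 RPKM. RPKM is scaled to the length of the gene model, which was 2188 bases for PSAT1, 5622 for PHGDH and 6981 for SHMT1. A model can be longer than the transcript present, so the order and the gaps between genes are approximate. The ranges of neighbours in this order overlapped among these 3. A gap of 3.22-fold then separated SHMT2 from MTHFD1 (24.9 ± 1.76 RPKM) and PHGDH (24.9 ± 4.99 RPKM), which overlapped each other. MTHFD1L followed with 14.6 ± 1.92 RPKM, then PSPH (8.88 ± 1.90 RPKM) and SHMT1 (8.79 ± 0.216 RPKM), which again overlapped, and ALDH1L2 was lowest with 4.06 ± 1.35 RPKM. After HKlincR1 depletion the first 3 ranks of the group means were the same, PHGDH stood above MTHFD1, and ALDH1L2 above SHMT1. The ranges of ALDH1L2 (4.43 to 13.1 RPKM) and SHMT1 (7.07 to 8.32 RPKM) overlapped there. In the third siHKlincR1 library ALDH1L2 was the lower, at 4.43 against 8.19 RPKM.

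**Figure D1:**
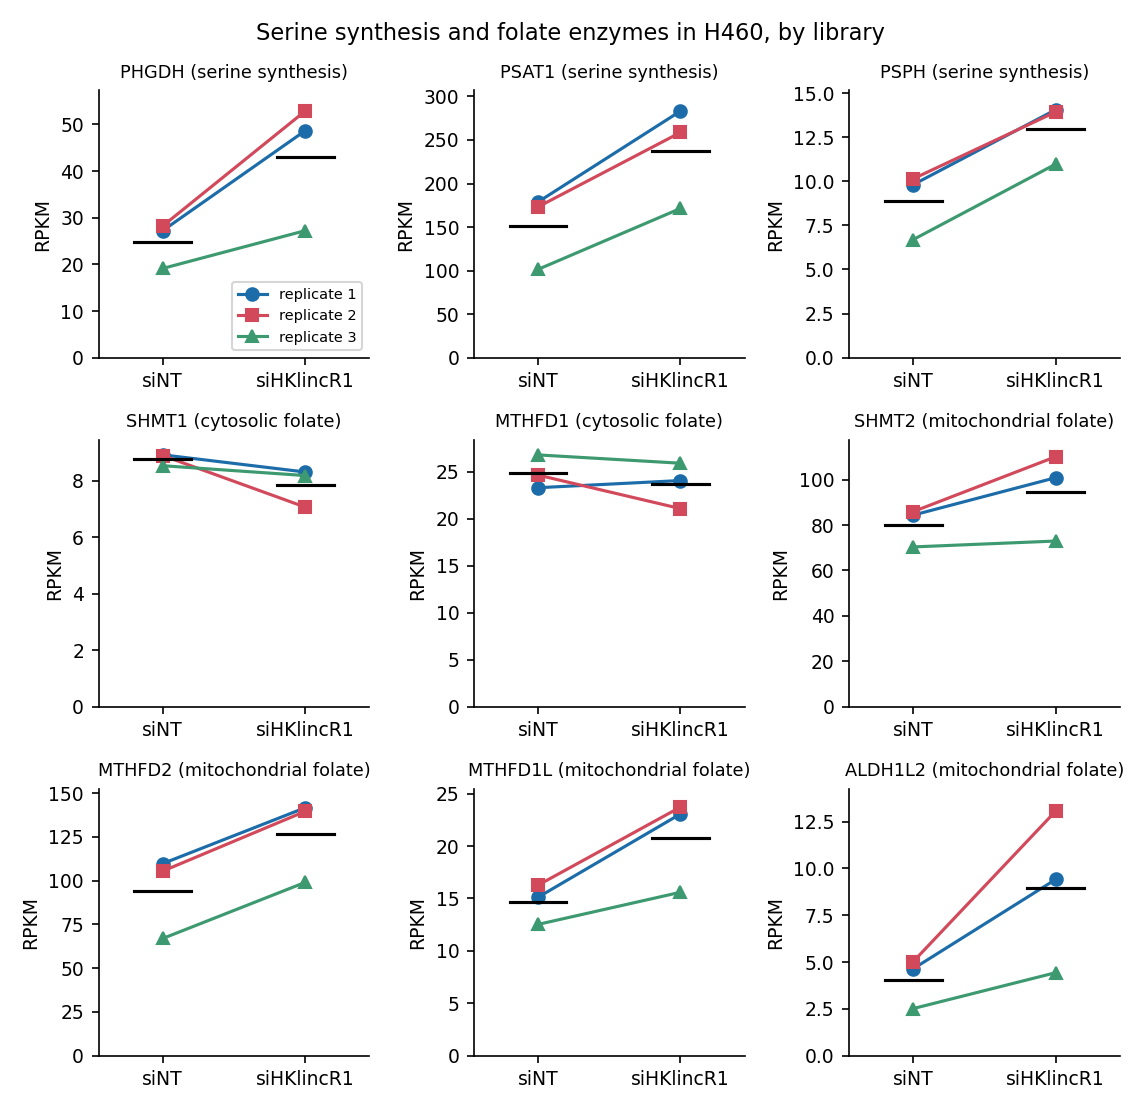
RPKM (vertical axes, linear, from 0) of the 9 enzymes in the siNT and siHKlincR1 libraries. Each point is 1 library, lines join libraries with the same replicate number and black bars are group means. For PHGDH, PSAT1, PSPH, SHMT2, MTHFD2, MTHFD1L and ALDH1L2 all 3 lines go up and the third replicate is lowest in both groups, while the lines of SHMT1 go down and those of MTHFD1 go in both directions.

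All 3 serine synthesis enzymes were higher in the siHKlincR1 library of every pair, a pattern that 24% of all tested genes had. PHGDH (chromosome 1, 120191034 to 120286841, plus strand, GRCh37), which commits 3-phosphoglycerate to serine, was at 27.2, 28.2 and 19.1 RPKM in the siNT libraries and at 48.7, 52.9 and 27.2 RPKM in the siHKlincR1 libraries. The third siHKlincR1 library lay just below the first and second siNT libraries, so the groups overlapped, but within pairs the level was 1.79, 1.87 and 1.42 times that of siNT. On the log2(RPKM + 0.1) scale the mean difference for PHGDH was 0.75, with a standard error of 0.27 without pairing and of 0.088 with the replicate number as a block. Since these are bulk libraries, a change in the share of cells that express a gene and a change in RNA per cell cannot be told apart.

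PSAT1 (chromosome 9, 80912041 to 80945009, plus strand), the transaminase of the second step, was at 179, 173 and 101 RPKM with siNT and at 283, 259 and 171 RPKM with siHKlincR1. It too overlapped between the groups only through the third replicate, and was 1.58, 1.49 and 1.69 times the siNT level within pairs (mean log2 difference 0.67, standard error 0.27, and 0.053 with the block). PSPH (chromosome 7, 56078744 to 56119297, minus strand), the phosphatase that releases serine, was at 9.81, 10.1 and 6.70 RPKM with siNT and at 14.1, 13.9 and 10.97 RPKM with siHKlincR1. It was the only one of the 9 enzymes whose siHKlincR1 libraries all lay above the siNT libraries, a pattern that 10.1% of all tested genes had. Its within-pair ratios were 1.43, 1.37 and 1.64 (mean log2 difference 0.56, standard error 0.18, and 0.071 with the block). The 3 steps thus differed by similar factors, with 95% intervals in the paired fit of 0.52 to 0.97 for PHGDH, 0.53 to 0.80 for PSAT1 and 0.38 to 0.74 for PSPH.

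The mitochondrial folate enzymes were also higher in the siHKlincR1 library of every pair, like 24% of all tested genes, and by unequal amounts. ALDH1L2 (chromosome 12, 105413562 to 105501421, minus strand), which oxidises formyl-tetrahydrofolate to carbon dioxide and yields NADPH, was at 4.64, 5.02 and 2.51 RPKM with siNT and at 9.41, 13.1 and 4.43 RPKM with siHKlincR1. The siHKlincR1 libraries of the first and second pair lay above every siNT library and the third did not. The ratios within pairs were 2.03, 2.60 and 1.76, the largest of the 9 enzymes in each pair (mean log2 difference 1.05, standard error 0.42, and 0.12 with the block). It was counted from 534 to 3210 reads a library, with the fewest in the third siNT library.

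MTHFD1L (chromosome 6, 151186815 to 151423023, plus strand), which frees formate from formyl-tetrahydrofolate in the mitochondrion, was at 15.1, 16.3 and 12.5 RPKM with siNT and at 23.1, 23.7 and 15.6 RPKM with siHKlincR1. The groups overlapped by the third siHKlincR1 library alone (mean log2 difference 0.49, standard error 0.18, and 0.073 with the block). MTHFD2 (chromosome 2, 74413299 to 74444692, plus strand), the mitochondrial methylene-tetrahydrofolate dehydrogenase, was at 110, 105 and 67.0 RPKM with siNT and at 142, 140 and 99.0 RPKM with siHKlincR1. Within pairs MTHFD2 was 1.29, 1.32 and 1.48 times the siNT level (mean log2 difference 0.45, standard error 0.22, and 0.056 with the block). SHMT2 (chromosome 12, 57623356 to 57628718, plus strand), which takes the carbon from serine, differed least of the mitochondrial enzymes. It was at 84.4, 85.9 and 70.4 RPKM with siNT and at 101, 110 and 73.0 RPKM with siHKlincR1, and in the third pair the ratio was 1.04 (mean log2 difference 0.22, standard error 0.16, and 0.070 with the block).

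The cytosolic enzymes were not higher. SHMT1 (chromosome 17, 18231174 to 18266877, minus strand), the cytosolic counterpart of SHMT2, was at 8.92, 8.90 and 8.54 RPKM with siNT and at 8.32, 7.07 and 8.19 RPKM with siHKlincR1. All its siHKlincR1 libraries lay below its siNT libraries, as they did for 11.9% of all tested genes, although by little (mean log2 difference -0.16, 95% interval -0.36 to 0.031 in the paired fit). MTHFD1 (chromosome 14, 64854749 to 64930175, plus strand), a cytosolic enzyme that carries out the reactions split between MTHFD2 and MTHFD1L, was at 23.3, 24.7 and 26.8 RPKM with siNT and at 24.1, 21.1 and 25.9 RPKM with siHKlincR1. It was higher in 1 pair and lower in the other two (mean log2 difference -0.076, 95% interval -0.25 to 0.096 in the paired fit). Both intervals included 0. In the fit without the block those of SHMT2 (-0.16 to 0.60) and MTHFD2 (-0.071 to 0.96) included 0 as well. The members were chosen with this comparison known, so the intervals do not set the cytosolic enzymes apart from the others. Being lower in all 3 pairs, as SHMT1 was, applied to 25.2% of all tested genes.

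**Figure D2:**
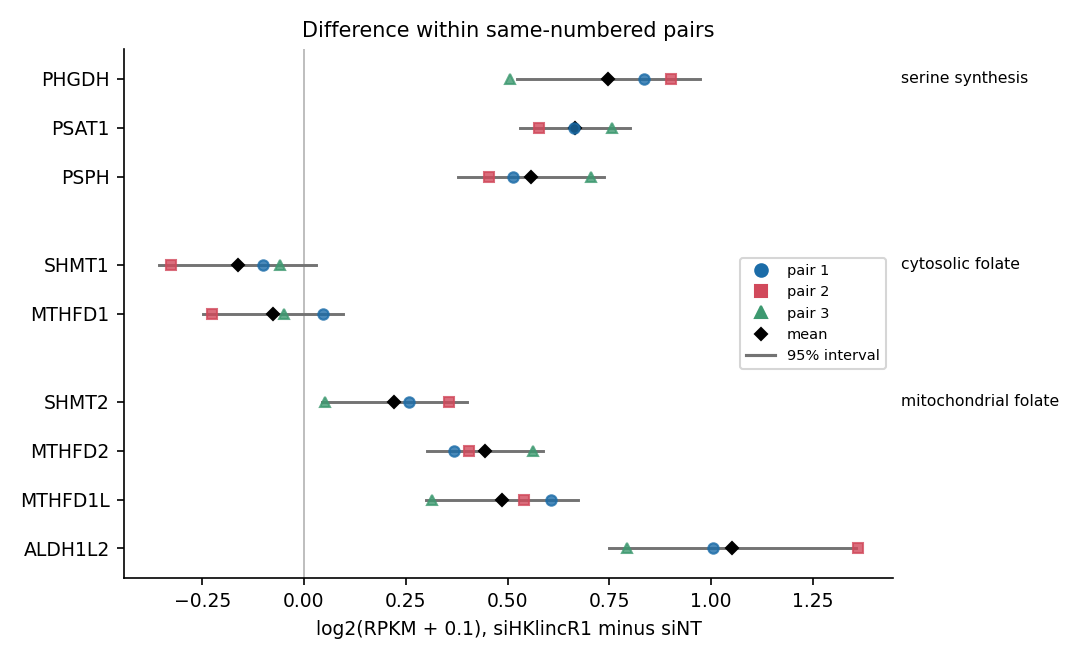
Difference in log2(RPKM + 0.1) between siHKlincR1 and siNT (horizontal axis) for the 9 enzymes (vertical axis), grouped by role. Coloured symbols are the 3 pairs of libraries with the same replicate number, black diamonds their mean and grey lines the 95% interval from limma with the replicate block. The intervals are not adjusted for the number of genes or for the choice of members. Those of SHMT1 and MTHFD1 include 0, those of the other enzymes lie above it, and ALDH1L2 is farthest to the right. Without the block the intervals of SHMT2 and MTHFD2, not drawn, also include 0.

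The contrast of the compartments was also written as ratios within each library, where depth cancels. The ratios restate the values above, so their differences between the groups are not a separate result. SHMT2 was 9.46, 9.66 and 8.24 times SHMT1 in the siNT libraries and 12.1, 15.6 and 8.91 times SHMT1 in the siHKlincR1 libraries. The RPKM of the mitochondrial form was thus higher in every library, as far as the gene model lengths (4838 bases for SHMT2, 6981 for SHMT1) allow the comparison. The ratio was higher after depletion in each pair, by 0.36, 0.68 and 0.11 on the log2 scale. MTHFD1L was 0.648, 0.659 and 0.467 times MTHFD1 with siNT and 0.957, 1.12 and 0.601 times with siHKlincR1 (log2 differences within pairs 0.56, 0.77 and 0.36). MTHFD2 was 4.70, 4.27 and 2.50 times MTHFD1 with siNT and 5.88, 6.62 and 3.82 times with siHKlincR1 (0.32, 0.63 and 0.61). For all 3 ratios every pair moved to the mitochondrial side, while the groups overlapped because of the third siHKlincR1 library. Summed over the 4 mitochondrial enzymes the level was 214, 213 and 152 RPKM with siNT and 275, 286 and 192 RPKM with siHKlincR1, and over the cytosolic enzymes it was 32.3, 33.6 and 35.4 RPKM with siNT and 32.4, 28.2 and 34.1 RPKM with siHKlincR1. No ratio is given for ALDH1L2, because its cytosolic counterpart ALDH1L1 had at most 2 reads in a library.

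**Figure D3:**
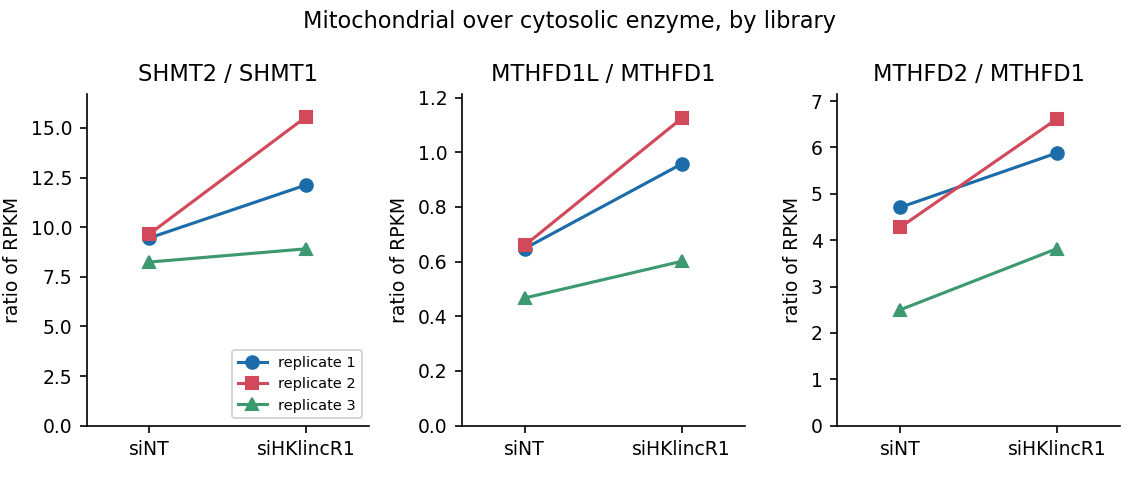
Ratio of the RPKM of a mitochondrial folate enzyme to that of the cytosolic enzyme of the same reaction (vertical axes, linear, from 0) in the siNT and siHKlincR1 libraries. Lines join libraries with the same replicate number. All 9 lines go up, and the third replicate has the lowest ratio in both groups.

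The 7 enzymes of serine synthesis and the mitochondrion shared a dependence on the replicate number. All 7 were lowest in the third replicate of both groups, as were 24% of all tested genes, and for ALDH1L2 the third siNT library was at 2.51 RPKM against 4.64 and 5.02 RPKM in the others. MTHFD1 was instead highest in the third replicate of both groups, as were 22.7% of all tested genes. The third siHKlincR1 library also had the lowest HKlincR1 level (0.390 RPKM). Being higher in all 3 pairs was common among tested genes too, at 24%. The standard errors of these 7 were 2.3 to 5 times those with the block when the block was left out, against 1.1 for SHMT1 and 1.41 for MTHFD1.

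In limma without a block, fitted to the 15451 genes that passed the filter, a gene was called where its fold change exceeded 1.5 and its Benjamini-Hochberg adjusted p was below 0.05. This called 0.362% of all genes (0.00647% as higher and 0.356% as lower) and 0 of the 9 enzymes, and 0 also with limma-voom on the reads worked back. The adjusted p alone passed 0.453% of all genes, 0.0129% as higher, and again 0 of the 9. At an unadjusted p under 0.05 were 5 of the 9, all higher, against 16.2% of all genes. With the replicate number as a block 1.32% of all genes were called, 0.511% as higher and 0.809% as lower, and 3 of the 9 enzymes, namely PHGDH, PSAT1 and ALDH1L2, all higher. At an adjusted p alone the block passed 6 of the 9, with PSPH, MTHFD2 and MTHFD1L in addition, and 2.93% of all genes, 1.2% as higher. An unadjusted p under 0.05 in this fit was reached by 7 of the 9 and by 26.3% of all genes. Because the members were chosen with this comparison known, nothing is read from these counts. Without the second pair the block called PSAT1 alone of the 9, and without the first or the third pair the same 3 enzymes. Of the 15451 genes these settings called 38, 131 and 305. Without the third siHKlincR1 library and without a block, PHGDH, MTHFD1L and ALDH1L2 were called, beside 518 of the 15451 genes, 204 as higher and 314 as lower. The median log2 fold change was 0.67 over the serine synthesis enzymes, 0.47 over the mitochondrial and -0.12 over the cytosolic enzymes, beside 0.0011 over all tested genes, with quartiles of -0.14 and 0.14.

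Promoters, from 250 bases before to 50 after the RefSeq start site (GRCh38.p14), were found for PHGDH, PSAT1, SHMT1, MTHFD1, MTHFD2 and MTHFD1L, and not for PSPH, SHMT2 and ALDH1L2. They were searched on both strands for TGATGNAA, the core of the composite element of ATF4 and C/EBP. Of the 6 promoters that of MTHFD1L held it, against 1.62% of the promoters of tested genes and 3.67% of all promoters. The stretch at chr6:150866346-150866375 (plus strand) is shown because it is the match among the members, with the motif in capitals, with its first base 129 bases before the start site.

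MTHFD1L: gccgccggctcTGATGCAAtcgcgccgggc

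The match is a description of the letters, and binding was not measured. The other 5 promoters did not hold these letters in this window.

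The 3′ UTRs of all 9 canonical transcripts were searched for GTGTGCT, the site of the siRNA seed, which 14% of tested genes with a 3′ UTR hold. It was in the 3′ UTR of ALDH1L2 once, 3430 bases from its start, and in that of no other member. The site is shown (chr12:105414755-105414783, GRCh37, minus strand) with the 7 letters in capitals that match the siRNA strand printed above.

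ALDH1L2: tcttcccagggGTGTGCTggtaaaatatt

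The part of the siRNA seed in the differences of the members was not tested.

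The genes around these enzymes were taken as 48 further genes in lists by role, of which 45 were tested, and limma's adjusted p over all genes is given for them first without and then with the replicate block. Without the block 0 of the 45 were called, and with the block 4 were, all higher (CBS, CTH, SLC1A4 and MYC), beside 0.362% and 1.32% of all tested genes, 0.00647% and 0.511% as higher. Of the other folate enzymes MTHFD2L, the second mitochondrial methylene-tetrahydrofolate dehydrogenase, was at 2.93 ± 0.347 and 2.98 ± 0.592 RPKM (SD, n = 3, siNT and siHKlincR1), a log2 difference of 0.016 (limma adjusted p = 0.968 and 0.927). It thus stood far below MTHFD2 in level.

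In the genes that use or import serine, 3 of 11 passed with the block. CBS, which joins serine to homocysteine, was at 9.05, 9.28 and 4.42 RPKM with siNT and at 19.5, 23.2 and 8.93 RPKM with siHKlincR1 (log2 difference 1.14, limma adjusted p = 0.268 and 0.0138). Like most of the 9 enzymes it overlapped between the groups by the third siHKlincR1 library. CTH, which splits the product to cysteine, differed by 0.68 (limma adjusted p = 0.344 and 0.0306), and the neutral amino acid transporter SLC1A4 by 0.66, with no overlap between the groups (limma adjusted p = 0.265 and 0.0471). SLC1A5, a glutamine and serine carrier, was at 73.4 ± 4.70 and 91.0 ± 10.3 RPKM (SD, n = 3) and did not pass (limma adjusted p = 0.236 and 0.0525). The sideroflexin SFXN1, which carries serine into the mitochondrion, had a log2 difference of 0.027.

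In the branch that spends folate carbons on nucleotides 0 of 9 genes passed. Thymidylate synthase TYMS was at 31.5, 31.9 and 36.8 RPKM with siNT and at 21.1, 15.5 and 31.3 RPKM with siHKlincR1. All its siHKlincR1 libraries lay below the siNT libraries (log2 difference -0.62, limma adjusted p = 0.277 and 0.0891). With limma-voom and the block TYMS was called lower (-0.60, adjusted p = 0.0211), among 424 genes called. Without the third siHKlincR1 library limma without the block also called it lower (-0.88, adjusted p = 0.0294), and CBS (1.55, 0.0423) and MYC (0.81, 0.0224) higher. That setting called 518 of all tested genes. GART, a purine enzyme that uses formyl-tetrahydrofolate, differed by 0.29 (limma adjusted p = 0.240 and 0.0616), so that the sign was not shared within this branch.

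In the methyl and methionine branch 0 of 7 genes passed, with MAT2A at a log2 difference of 0.22 (limma adjusted p = 0.295 and 0.112) and AHCY at 0.17 (0.237 and 0.10). Folate carriers and storage enzymes had 0 of 5 tested genes past the thresholds. The plasma membrane carrier SLC19A1 differed by -0.35 (limma adjusted p = 0.298 and 0.105), the hydrolase GGH by -0.26 (0.167 and 0.0753) and the mitochondrial folate carrier SLC25A32 by 0.24 (0.236 and 0.116). For these 3 and for FPGS, which keeps folates in the cell by adding glutamates (14.6 and 12.8 RPKM), the groups did not overlap, a pattern that 10.1% of all tested genes had upwards and 11.9% downwards. The folate receptor gene FOLR1 was at most at 0.0208 RPKM, which was worked back to 1 read.

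The glycine cleavage system had 0 of 3 tested genes called, and its defining enzyme GLDC was at 0.612 ± 0.0404 and 0.692 ± 0.0810 RPKM (SD, n = 3), a log2 difference of 0.15 (limma adjusted p = 0.703 and 0.675). The log2 difference was 0.016 for GCSH (limma adjusted p = 0.968 and 0.956) and -0.087 for DLD (0.508 and 0.403). For the mitochondrial users of formyl groups it was 0.11 for PDF (limma adjusted p = 0.706 and 0.540) and 0.076 for MTFMT (0.575 and 0.447). The 4 glycolytic genes around 3-phosphoglycerate were all slightly lower, PGAM1 by -0.26 (0.446 and 0.195), PGK1 by -0.25 (0.295 and 0.153) and ENO1 by -0.18 (0.292 and 0.0943), with 0 called.

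Of the transcription factors known to act on these genes, MYC was at 111, 114 and 93.5 RPKM with siNT and at 185, 187 and 116 RPKM with siHKlincR1. Its groups did not overlap (log2 difference 0.59, limma adjusted p = 0.237 and 0.0493). ATF4 was at 191, 193 and 155 RPKM with siNT and at 210, 208 and 196 RPKM with siHKlincR1 (log2 difference 0.19, limma adjusted p = 0.358 and 0.134), and NFE2L2 differed by 0.22 (0.341 and 0.114). All 3 were higher in every pair, as were 24% of all tested genes. The groups of ATF4 and NFE2L2 did not overlap either, a pattern that 10.1% of all tested genes had upwards. ATF4 is known to be set largely by translation, which RNA levels do not show.

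**Figure D4:**
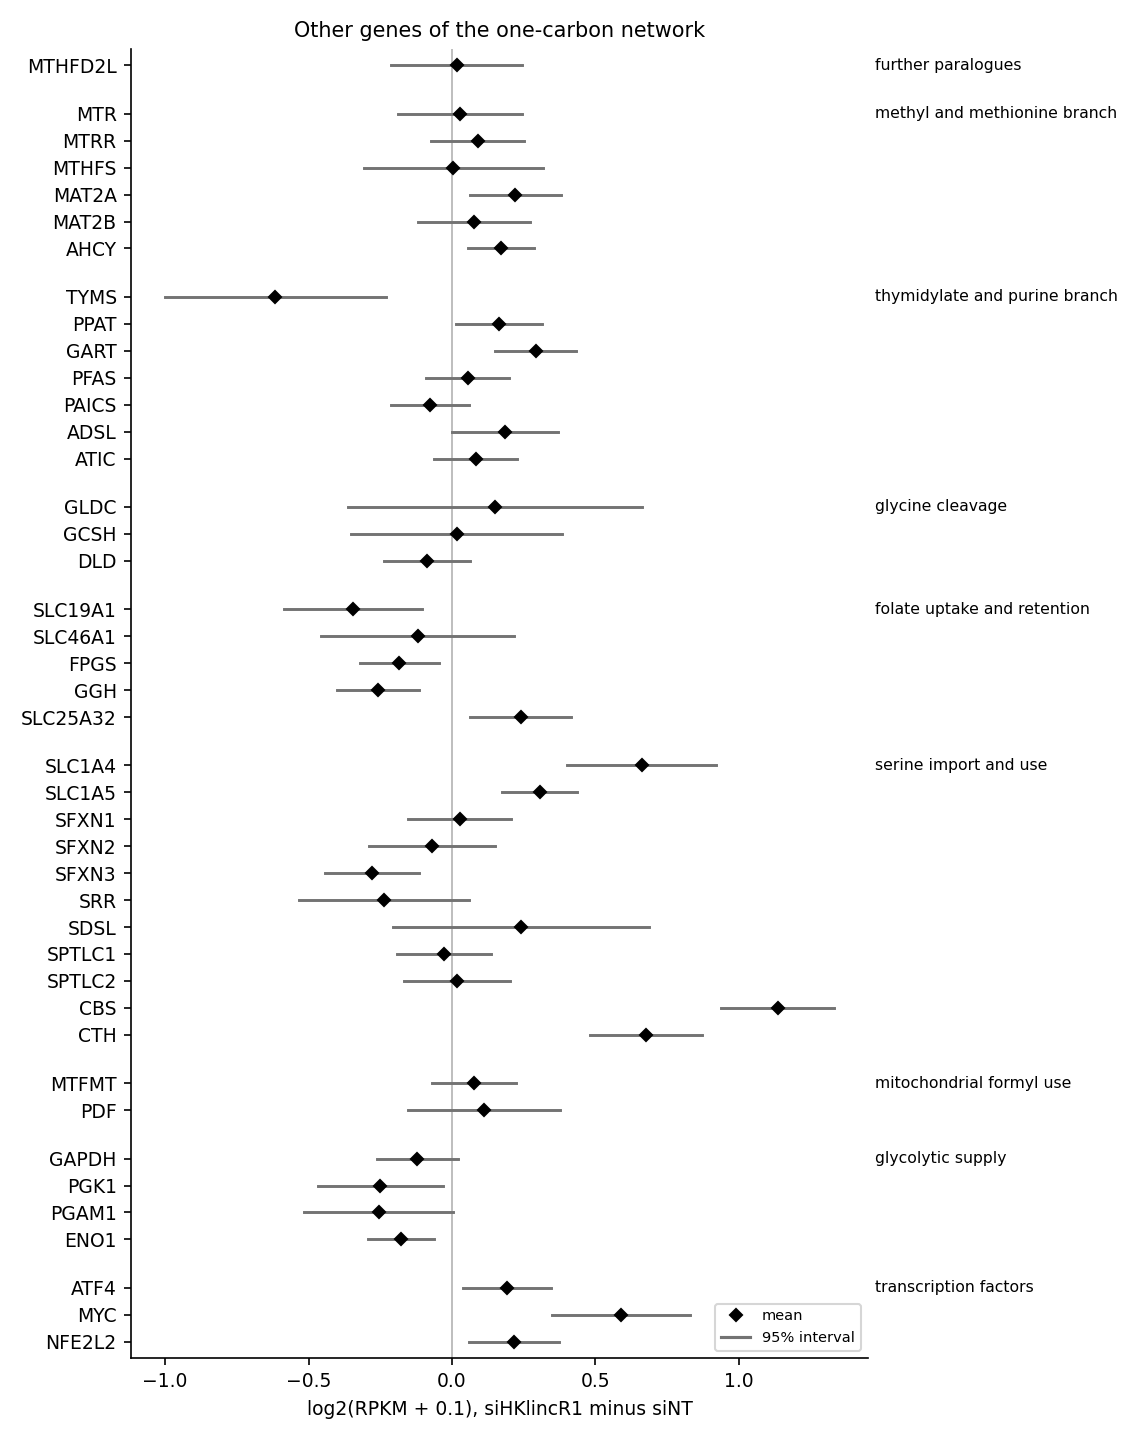
Difference in log2(RPKM + 0.1) between siHKlincR1 and siNT (horizontal axis) for 42 of the 45 tested genes around the 9 enzymes (vertical axis), grouped by role. Diamonds are means over 3 pairs and lines the 95% interval from limma with the replicate block, not adjusted for the number of genes. CBS, CTH, SLC1A4 and MYC lie farthest to the right and TYMS farthest to the left.

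Of 7753 other genes, each averaging 5 RPKM or more, those whose log2 level over the 6 libraries correlated best with the mean of the standardised levels of the 9 enzymes were KLHL12 (Pearson's r = 0.999), ZKSCAN1 (0.998), MKRN2 (0.998), DNTTIP1 (0.997) and GPBP1L1 (0.997). The 6 points share their groups and replicate numbers, and these 5 are the highest of all the correlations computed. Their log2 differences were 0.13 to 0.29, smaller than those of most of the enzymes, and none of the 5 passed the thresholds in either fit. Within the members the correlation with this mean was 0.902 to 0.991 for the 7 serine synthesis and mitochondrial enzymes and -0.451 for SHMT1 and -0.707 for MTHFD1. Each member is part of the mean and the 7 make up most of it, so this split is partly built in and nothing is read from it.

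Pseudogenes and overlapping genes limit some of these values, since the use of strand and the treatment of reads with several matches in the counting were not given in the sources used here. PSAT1P3 had 4.32% of the reads of PSAT1 (log2 difference 0.72), MTHFD2P7 had 3.34% of those of MTHFD2 (0.46) and MTHFD1P1 had 10.5% of those of MTHFD1 (-0.10), beside 0.67, 0.45 and -0.076 for the parent genes. The other pseudogenes with a mean of at least 0.5 RPKM, which were MTHFD2P1, MTHFD2P5, PSAT1P1, PSAT1P4 and PSPHP1, had 0.417% to 0.855% of their parent's reads. Their log2 differences, in this order, were 0.11, 0.43, 0.68, 0.54 and 2.13. Those of MTHFD2P1 and PSPHP1 were unlike those of their parents (0.45 for MTHFD2 and 0.56 for PSPH), and PSPHP1 had a mean of only 4.83 reads a library. The largest exon overlaps, all on the other strand, were of MTHFD1 with a long noncoding gene (1556 bases, partner at a mean of 0.297 RPKM) and of MTHFD2 with SLC4A5 (1324 bases, 0.00417 RPKM). MTHFD1, SHMT2 and MTHFD2 had further overlaps of 33 to 352 bases. Exons of SHMT1 overlap those of SMCR8 on the other strand by 197 bases, and exons of ALDH1L2 overlap those of NOPCHAP1 by 145 and of WASHC4 by 131 bases. These partners were expressed, at means of 9.08 RPKM for SMCR8, 10.0 for NOPCHAP1 and 15.2 for WASHC4 over all libraries. That was above the siNT and siHKlincR1 means of SHMT1 (8.79 and 7.86 RPKM) and of ALDH1L2 (4.06 and 8.96 RPKM). The effect of these overlaps on the counts was not tested.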

How the data were processed

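Paired-end reads of strand-specific polyA libraries from 3 siNT and 3 siHKlincR1 samples, described as biological replicates, were counted by the authors on Ensembl v74 gene models (GRCh37) with featureCounts of Rsubread, and RPKM values were deposited. The aligner was not given in the sources used here. The authors ran edgeR on their counts, whereas the tests here used the RPKM values. Because the RPKM values were not rounded, library totals and reads could be worked back, and 100% of the 152380 nonzero values came out whole within 0.001 reads. The gene model lengths were worked back from the same values, so this wholeness is partly built in. For a gene seen in few libraries, reads and length are known only up to a common factor. Tests used limma 3.58.1 in R 4.3.3 (lmFit, eBayes with a mean-variance trend) on log2(RPKM + 0.1), a pseudocount that understates changes of low genes, with a replicate block as the alternative. The replicate numbers were taken to pair the libraries because deviations from the group means correlated by 0.137 to 0.266 across genes in same-numbered pairs, against -0.209 to 0.113 for different numbers. Only the third pair (0.266) stood apart. The first siNT with the second siHKlincR1 library (0.113) was close to the first and second pairs (0.142 and 0.137). Deviations within a group sum to 0, so these correlations are not independent. The labels do not say what a number marks, and all results with the block rest on this pairing. The script was tested on simulated reads with 200 genes changed by 1.5 on the log2 scale and no replicate effect. It recovered 98.5% of these genes without the block and 97.5% with it, beside 11 and 12 false calls. The differences of the members were smaller and varied with the replicate number, so this does not show how the fits perform on them. Symbols came from GENCODE v44 on GRCh37 (55538 of 57773 identifiers matched; PECAM1 was not matched). The members and lists were chosen with earlier results of these data known. Named beside the members were HKlincR1, called genes and up to 3 of the largest differences per list (some list genes are counted but not reported here by name), expressed pseudogenes of members and the 5 genes most like the members' mean, with SLC1A5, SFXN1, FPGS, FOLR1, ALDH1L1 and the markers added after their values were seen. Alternatives changed the pseudocount, filter, scaling, variance model, thresholds and block, left out each library, and used limma-voom on the reads.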

Additional observations from a re-analysis of the deposited data

How the results depend on the processing

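The differences of PHGDH, PSAT1, PSPH, SHMT1, SHMT2, MTHFD2, MTHFD1L and ALDH1L2 kept their direction in all 18 alternatives each, and those of the ratios of SHMT2 to SHMT1, MTHFD1L to MTHFD1 and MTHFD2 to MTHFD1 in all 10 each, with lowest and highest values of 0.19 to 0.59, 0.37 to 0.82 and 0.24 to 0.76 when libraries were left out. Several alternatives could not change a direction, so these counts are not support by themselves. The filter, the variance trend and the block leave a mean log2 difference as it is (0.75 for PHGDH in each). In a ratio, scaling nearly cancels and the block changes nothing. With libraries left out, MTHFD1 ranged from -0.14 to 0.0056, MTHFD2L from -0.11 to 0.17, GCSH from -0.11 to 0.082 and PDF from -0.026 to 0.20. With the replicate block, MTHFD2L was at -0.050 without pair 2 and GCSH at -0.056 without pair 1. Genes called numbered 56 in the fit reported first, 17 without the variance trend, 89 with voom, 204 with the replicate block (452 with no fold threshold, 424 with voom), 131, 38 and 305 with the block without pair 1, pair 2 and pair 3, and 7 to 518 with 1 library left out, the highest without the third siHKlincR1 library. Members called numbered 0 to 3 with 1 library left out, 3 with the replicate block (6 with no fold threshold, 3 with voom, 1 without pair 2, 3 without pair 1 or pair 3). The reduction of HKlincR1 was 83.6% to 86.9% with libraries left out and 67.1% with a pseudocount of 1 RPKM, which raises low values by construction. The voom fit with the block, the block without a pair and the block without a fold threshold were chosen after seeing the data. The cause of the differences between settings was not tested. No ratio to ALDH1L1 was run, as it had at most 2 reads. Depth did not limit the members, which had at least 462 reads in every library, but GLDC, GCSH and PDF had 44 to 103.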
